A study of Klebsormidium nitens with 4 samples.

Results

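A set of 213 genes of *Klebsormidium nitens* is described here, genes that were expressed at a modest level in low light and whose transcripts were scarce, though still detected, after 3 h of high light. Expression is given in FPKM, mapped fragments scaled to the length of the gene and to the size of the library. A gene entered the set when the ratio r = (mean high light FPKM + 1)/(mean low light FPKM + 1) was at most 0.25, when its mean in low light was from 5 to under 50 FPKM, when both high light libraries lay below both low light libraries, and when it was above 0 in at least 1 high light library. Genes whose identifiers the study discusses in its text were left out, which removed 1 gene that passed otherwise. The 213 members are 1.23% of the 17290 genes measured and 3.05% of the 6987 genes with a low light mean of 5 to under 50 FPKM. Since the measured values chose the members, their lower level in high light is a description and was not tested.

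This filamentous alga belongs to the Charophyta, the algae from within which land plants arose. Under excess light a photosynthetic cell absorbs more energy than carbon fixation can use, and algae and plants commonly make less of their light-harvesting antenna, change the flux of carbon and nitrogen metabolism and adjust the cell cycle. Transcripts for DNA replication and mitosis accumulate in dividing cells at particular stages of the cell cycle, whereas those for antenna proteins, transporters and many metabolic enzymes respond to light and nutrients.

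The high light cultures received 1500 µE m-2 s-1 for 3 h, and the low light cultures stayed at 50 µE m-2 s-1, the irradiance at which all cultures had been grown. All cultures were of strain NIES-2285, photoautotrophic, at 20 °C, bubbled with air that held 1% CO2, and in exponential growth at 45 µg/ml chlorophyll. There were 2 independent cultures, and so 2 libraries, per condition. Poly(A) RNA of whole cultures was sequenced with a stranded protocol to about 17 M reads of 50 nt per library, and since FPKM hold no counts, the depth behind each value is unknown. Only strain NIES-2285 and a single exposure time were studied, so the values below belong to 1 strain at 1 time.

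The libraries were close in scale, with summed FPKM of 620285 and 620013 in high light and 660467 and 657079 in low light. The exception was plastid rRNA, whose 6 features summed to 11958 and 371 FPKM in high light replicates 1 and 2, and to 168 and 17196 FPKM in low light replicates 1 and 2. High light replicate 1 and low light replicate 2 therefore stood apart from the other libraries in rRNA content, across the conditions and not between them.

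Among the members, the median level was 1.83 and 1.89 FPKM in the high light libraries, against 14.9 and 14.1 FPKM in the low light libraries. Their summed FPKM was 498 and 542 in high light, 0.0803% and 0.0874% of the library sums, and 3728 and 3697 in low light, 0.565% and 0.563% of the library sums. The members thus made up a small part of the transcriptome in both conditions. The highest mean in high light was 10.6 FPKM, and 60 members had a high light mean under 1 FPKM. In low light the means ran from 5.01 to 50.0 FPKM, with 66 members under 10 FPKM, 105 from 10 to under 25 FPKM and 42 from 25 to under 50 FPKM.

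Low abundance holds for these genes only in part. The median low light mean of the members, 14.4 FPKM, compares with 16.9 FPKM over the 10557 genes above 0 in all 4 libraries, and 44.5% of those genes lay below it. In low light the members were therefore near the middle of the expressed genes, and low only beside the 43 repressed genes that pass the same ratio at 50 FPKM or more. In high light the members' median of 1.73 FPKM lay above just 6.49% of the 10557 genes, whose own median was 14.7 FPKM.

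**Figure D1:**
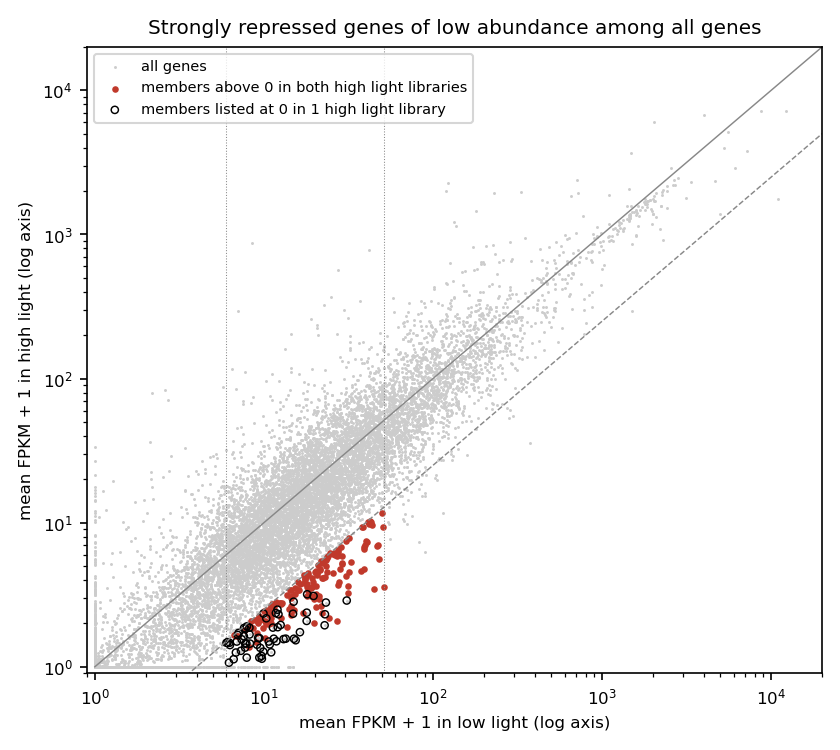
Mean FPKM + 1 in high light (vertical, log axis) against low light (horizontal, log axis) for every gene, with members above 0 in both high light libraries in red and members listed at 0 in 1 of them as open circles. The solid line marks equal values, the dashed line a ratio of 0.25 and the dotted lines the bounds of 5 and 50 FPKM in low light. The members fill the strip under the dashed line, down to a high light mean of 0.0684 FPKM.

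The ratio r ran from 0.0701 to 0.2499 with a median of 0.204, and 109 of the 213 members had a ratio above 0.2, so the set is densest next to its own limit. At that limit the genes inside and outside were alike. Just inside, EME1B (kfl00057_0090) had a ratio of 0.2499, kfl00164_0220 one of 0.2497 and kfl00231_0160 one of 0.2493. Just outside, kfl00177_0300 had 0.2501, kfl00226_0160 had 0.2511 and kfl00958_0030 had 0.2512. At the other end, 26 members had a ratio of at most 0.125. Over the 154 members above 0 in every library, the mean FPKM was 4.42-fold to 24.1-fold lower in high light, with a median of 6.63-fold.

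The high light and low light values of a member never overlapped, as the choice of the genes requires. High light values that both lie below both low light values occurred in 33.1% of all genes, and the reverse order in 18.5%. These shares are on the deposited FPKM, which were not normalized between the libraries here. The lower of the low light values was 2.69 to 29.2 times the higher of the high light values, with a median of 5.13 times, and at least 3 times in 206 members. Of the 154 members above 0 in every library, 150 had a ratio between conditions, taken in this way, above the ratio of the replicates in either condition, and 4 did not. The choice of the genes favours such wide gaps, and their share over all genes was not counted. Nothing is therefore read from these counts. The narrowest gap was in kfl00736_g3, with 2.55 and 7.38 FPKM in high light against 19.9 and 33.3 FPKM in low light, where the high light replicates were further apart, as a ratio, than the nearest values of the conditions.

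In the limma comparison of all 17290 genes (log2 fold change of at most -1 and adjusted p below 0.05), 79 members were called repressed and 134 were not, where 3.51% of all genes were called and 4.38% of the genes of 5 to under 50 FPKM in low light. The same contrast chose the members, so nothing is read from these counts. Over the 154 members above 0 in every library, the median log2 fold change on the quantile-normalized log2(FPKM + 1) scale was -1.89, with a range of -3.56 to -1.43. Over all 213 members, 59 of them listed at 0 in 1 high light library, the median was -1.98, beside a median of -0.02 over all genes of 5 to under 50 FPKM in low light. With 2 libraries per condition the count of calls depended on genes with little or no expression. When genes with means under 1 FPKM in both conditions were not fitted, 192 members were called. With 1 library left out, the median log2 fold change of the members was -2.07 to -1.87. Calls of such fits are not counted, since 1 library in a condition leaves little to estimate the spread from.

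Of the 213 members, 89 are among the genes that the study listed as changed and for which it gave best hits in other species, and 77 of these 89, or 86.5%, were called here. A role below requires such a listing, so the share of calls in a role group is not given as a result. An Arabidopsis best hit existed for 67 members, a *Chlamydomonas* best hit for 61, both for 56 and neither for 17 of the 89. The other 124 members have no annotation in the sources used here and are described by identifier alone. Of the 67 Arabidopsis hits, 51 are to genes with a known role, in 8 groups, and the remaining 16 are not described by role. The roles below are those of the Arabidopsis genes, and for the *K. nitens* genes they rest on sequence similarity.

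**Figure D2:**
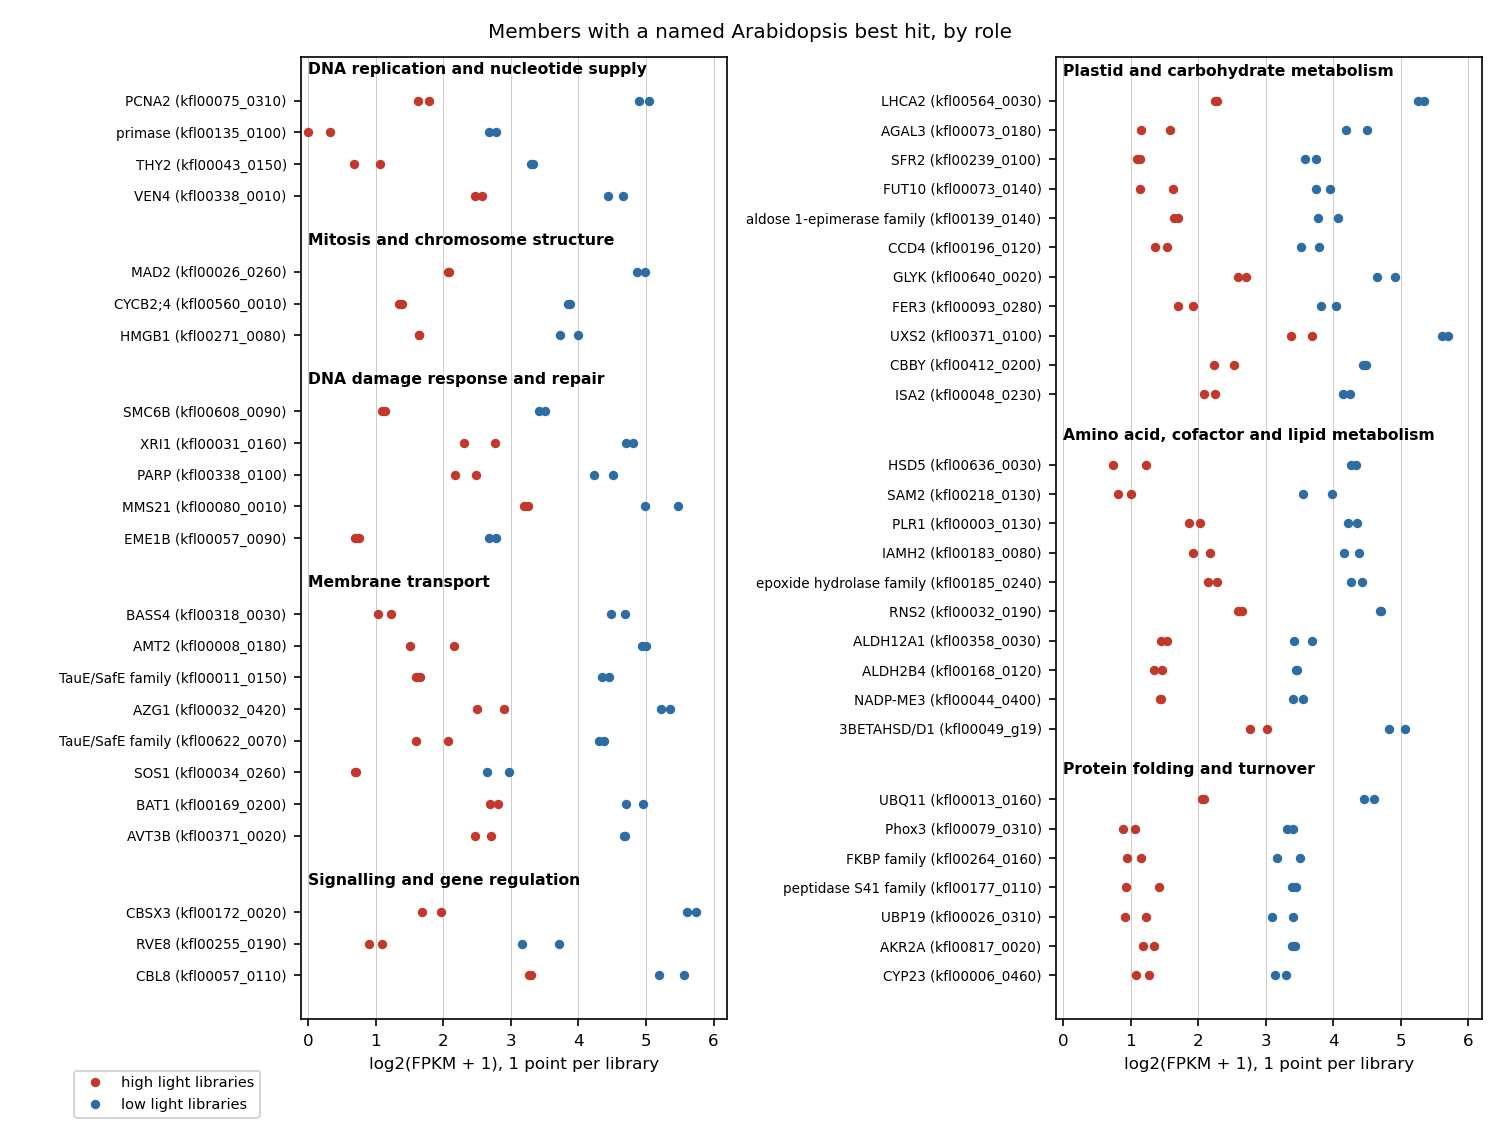
Level of the 51 members with a named Arabidopsis best hit, as log2(FPKM + 1), with 1 point per library, high light in red and low light in blue, grouped by role. In every gene the red points lie left of the blue points, which the choice of the genes fixes, and the distance between points of 1 color is the replicate spread.

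The DNA replication group held 4 members. PCNA2 (kfl00075_0310), the sliding clamp that holds DNA polymerases on their template, had 2.47 and 2.08 FPKM in high light against 32.1 and 28.8 FPKM in low light, 13.4-fold lower in high light. THY2 (kfl00043_0150), a bifunctional dihydrofolate reductase and thymidylate synthase that supplies thymidylate, had 1.09 and 0.596 FPKM in high light against 8.79 and 9.004 FPKM in low light. The small subunit of DNA primase (kfl00135_0100), which makes the RNA primers of replication, was listed at 0 and had 0.257 FPKM in high light, against 5.86 and 5.39 FPKM in low light. These 3 genes serve DNA synthesis directly, and their lower level in high light was set by their choice. VEN4 (kfl00338_0010), which in Arabidopsis is the counterpart of the dNTP hydrolase SAMHD1, had 4.57 and 4.95 FPKM in high light against 20.6 and 24.4 FPKM in low light. In RNA of whole cultures, fewer cells at a stage of the cell cycle and less of the transcript per cell cannot be told apart.

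Mitosis and chromosome structure were represented by 3 members, with closely matching replicates in high light. MAD2 (kfl00026_0260), a protein of the spindle assembly checkpoint, had 3.26 and 3.22 FPKM in high light against 28.3 and 30.7 FPKM in low light. CYCB2;4 (kfl00560_0010), a B-type cyclin of the entry into mitosis, had 1.62 and 1.54 FPKM in high light against 13.3 and 13.6 FPKM in low light. HMGB1 (kfl00271_0080), a high mobility group protein of chromatin, had 2.12 and 2.11 FPKM in high light against 14.9 and 12.3 FPKM in low light. The difference between conditions was 6.43-fold to 9.11-fold in these genes.

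For DNA damage response and repair, 5 members were found. SMC6B (kfl00608_0090), a subunit of the SMC5/6 complex that acts in recombination repair, had 1.13 and 1.202 FPKM in high light against 9.70 and 10.4 FPKM in low light. MMS21 (kfl00080_0010), the SUMO ligase of the same complex, had 8.57 and 8.21 FPKM in high light against 43.4 and 30.7 FPKM in low light. EME1B (kfl00057_0090), the partner of the endonuclease MUS81, had 0.619 and 0.688 FPKM in high light against 5.39 and 5.85 FPKM in low light. Both SMC5/6 components were thus among the members, at levels that differed several-fold from each other in either light. XRI1 (kfl00031_0160), which in Arabidopsis is induced by X-rays and needed in meiosis, had 3.96 and 5.82 FPKM in high light against 25.04 and 27.0 FPKM in low light. A poly(ADP-ribose) polymerase (kfl00338_0100), which modifies proteins at DNA breaks, had 4.58 and 3.52 FPKM in high light against 21.8 and 17.7 FPKM in low light.

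The wider machinery was followed with lists of 72 Arabidopsis loci for replication, mitosis and repair. Best hits exist only for genes that the study listed as changed in these samples, so the counts are not independent evidence of a direction. Of all 1355 genes with an entry in that table, 39.3% were called repressed here, against 3.51% of all genes. The lists found 22 *K. nitens* genes, 12 of them members, and 17 were called repressed, 1 was called activated and 4 were not called. Among the 10 that are no members, 6 were listed at 0 in both high light libraries, which the choice of the members leaves out. They include MCM2 (kfl00422_0010), MCM5 (kfl00184_0010) and MCM6 (kfl00029_0270), subunits of the replicative helicase, at 9.27 and 7.44, 7.10 and 6.97, and 6.43 and 8.24 FPKM in low light. The helicase subunit MCM4 (kfl00033_0310) remained detectable in high light, with 0.955 and 1.27 FPKM against 5.80 and 5.998 FPKM in low light. The gene called activated was another poly(ADP-ribose) polymerase (kfl00192_0020), with 23.5 and 27.8 FPKM in high light against 12.4 and 12.6 FPKM in low light. Over all genes, 4.0% were called activated, and the activated share of the 1355 listed genes was not counted.

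The membrane transport group held 8 members. BASS4 (kfl00318_0030), of the bile acid:sodium symporter family, had 1.33 and 1.04 FPKM in high light against 24.9 and 21.3 FPKM in low light, 19.5-fold lower in high light. AMT2 (kfl00008_0180), an ammonium transporter, had 1.83 and 3.48 FPKM in high light against 29.8 and 31.0 FPKM in low light. AZG1 (kfl00032_0420), a purine transporter, had 4.64 and 6.46 FPKM in high light against 39.9 and 36.5 FPKM in low light. For AMT2 and AZG1 the higher value of the high light pair was in replicate 2. Amino acid transport was represented by BAT1 (kfl00169_0200), with 6.01 and 5.46 FPKM in high light against 25.1 and 30.01 FPKM in low light, and by the vacuolar type AVT3B (kfl00371_0020), with 5.54 and 4.53 FPKM in high light against 24.4 and 24.7 FPKM in low light. SOS1 (kfl00034_0260), a sodium/proton antiporter of the plasma membrane, was the least abundant of the group, with 0.633 and 0.621 FPKM in high light against 6.81 and 5.30 FPKM in low light. The remaining 2 belong to the TauE/SafE family, named after bacterial sulfite exporters. Of these, kfl00011_0150 had 2.01 and 2.15 FPKM in high light against 20.8 and 19.3 FPKM in low light, and kfl00622_0070 had 2.03 and 3.19 FPKM in high light against 18.8 and 19.9 FPKM in low light.

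Over the list for nitrogen and amino acid transport, 12 Arabidopsis loci, 7 *K. nitens* genes had a best hit, of which 4 are members, 6 were called repressed and 1 was called activated, where 39.3% of the 1355 genes that could have a hit were called repressed. Over all genes, 3.51% were called repressed and 4.0% activated, and the activated share of the 1355 genes was not counted. The activated gene is a second AMT2 hit, described with the shared best hits below.

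Plastid functions and carbohydrate metabolism made up the largest role group, with 11 members. LHCA2 (kfl00564_0030), an antenna protein of photosystem I, had 3.86 and 3.74 FPKM in high light against 37.1 and 39.6 FPKM in low light, 10.1-fold lower in high light. SFR2 (kfl00239_0100), which remodels galactolipids in the chloroplast envelope, had 1.21 and 1.13 FPKM in high light against 12.4 and 10.9 FPKM in low light. CCD4 (kfl00196_0120), a carotenoid cleavage dioxygenase, had 1.56 and 1.89 FPKM in high light against 10.5 and 12.8 FPKM in low light. These genes belong to the antenna, the membrane and the pigments of the plastid. In each the replicates lay close together, and the distance between the conditions was set by the choice of the genes. GLYK (kfl00640_0020), the glycerate kinase that completes photorespiration, had 4.99 and 5.56 FPKM in high light against 24.0 and 29.1 FPKM in low light. CBBY (kfl00412_0200), a phosphatase that removes an inhibitor of Rubisco, had 4.77 and 3.70 FPKM in high light against 20.6 and 21.4 FPKM in low light. FER3 (kfl00093_0280), a plastid ferritin that stores iron, had 2.24 and 2.79 FPKM in high light against 15.5 and 13.1 FPKM in low light. These were 4.96-fold to 5.70-fold lower in high light.

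The other members of the group act on sugars. AGAL3 (kfl00073_0180), an alpha-galactosidase, had 1.23 and 1.99 FPKM in high light against 21.6 and 17.2 FPKM in low light. ISA2 (kfl00048_0230), an isoamylase of starch synthesis, had 3.73 and 3.24 FPKM in high light against 17.9 and 16.6 FPKM in low light. UXS2 (kfl00371_0100), which makes the cell wall precursor UDP-xylose, had 9.39 and 11.8 FPKM in high light against 50.7 and 47.6 FPKM in low light. UXS2 was the member with the highest mean in high light. The fucosyltransferase FUT10 (kfl00073_0140), on the same scaffold as AGAL3, and an aldose 1-epimerase (kfl00139_0140) had 1.198 to 2.27 FPKM in the high light libraries against 12.3 to 15.7 FPKM in the low light libraries.

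The antenna list of 21 Arabidopsis loci found 9 genes, of which LHCA2 (kfl00564_0030) was the only member, and the other repressed antenna genes all had low light means of at least 50 FPKM. Of the 9, 8 were called repressed and 1 was called activated. Among all genes, 3.51% were called repressed and 4.0% activated. Of the 1355 listed genes, 39.3% were called repressed, and their activated share was not counted. The nearest in level, LHCA4 (kfl00023_0070), had 7.35 and 6.09 FPKM in high light against 58.5 and 50.7 FPKM in low light. In photorespiration, the list of 12 loci found GLYK and HPR1 (kfl00003_0590), the peroxisomal hydroxypyruvate reductase that acts directly before GLYK. HPR1 had 267 and 289 FPKM in high light against 129.995 and 144 FPKM in low light and was not called, so these neighbouring steps of the pathway had opposite directions, that of GLYK being set by its choice.

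In amino acid, cofactor and lipid metabolism, 10 members had a role. SAM2 (kfl00218_0130), an S-adenosylmethionine synthetase that makes the methyl donor of the cell, had 1.02 and 0.765 FPKM in high light against 14.8 and 10.8 FPKM in low light, 14.3-fold lower in high light. HSD5 (kfl00636_0030), a hydroxysteroid dehydrogenase, had 0.676 and 1.34 FPKM in high light against 18.2 and 19.2 FPKM in low light, 18.5-fold lower in high light. PLR1 (kfl00003_0130), a pyridoxal reductase of vitamin B6 metabolism, had 3.09 and 2.66 FPKM in high light against 17.5 and 19.3 FPKM in low light. SAM2 and HSD5 had the widest difference of this group. The aldehyde dehydrogenases ALDH12A1 (kfl00358_0030), of proline breakdown, and ALDH2B4 (kfl00168_0120), of mitochondria, had 1.54 to 1.90 FPKM in the high light libraries against 9.71 to 11.8 FPKM in the low light libraries. IAMH2 (kfl00183_0080), an indole-3-acetamide hydrolase, had 2.78 and 3.54 FPKM in high light against 16.9 and 19.8 FPKM in low light. RNS2 (kfl00032_0190), a vacuolar ribonuclease that recycles RNA, had 5.25 and 5.04 FPKM in high light against 24.998 and 24.7 FPKM in low light. The remaining 3, an epoxide hydrolase (kfl00185_0240), the malic enzyme NADP-ME3 (kfl00044_0400) and the sterol enzyme 3BETAHSD/D1 (kfl00049_g19), were 4.60-fold to 5.94-fold lower in high light.

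Protein folding and turnover held 7 members. UBQ11 (kfl00013_0160), a polyubiquitin, was the most abundant, with 3.16 and 3.26 FPKM in high light against 20.8 and 23.4 FPKM in low light. AKR2A (kfl00817_0020), a cytosolic factor that delivers proteins to the chloroplast outer envelope, had 1.53 and 1.26 FPKM in high light against 9.45 and 9.85 FPKM in low light. The peptidyl-prolyl isomerase CYP23 (kfl00006_0460) had 1.11 and 1.42 FPKM in high light against 8.82 and 7.83 FPKM in low light. The other 4, Phox3 (kfl00079_0310), an FKBP-type isomerase (kfl00264_0160), a C-terminal processing peptidase (kfl00177_0110) and the ubiquitin protease UBP19 (kfl00026_0310), lay at 0.848 to 1.68 FPKM in the high light libraries against 7.53 to 10.3 FPKM in the low light libraries. Members of this group were thus mostly near 1 FPKM in high light and near 9 FPKM in low light, except for UBQ11.

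Signalling and gene regulation had 3 members. CBSX3 (kfl00172_0020), a mitochondrial protein with CBS domains that in Arabidopsis regulates thioredoxin, had the lowest ratio of all members, 0.0701, with 2.23 and 2.92 FPKM in high light against 52.3 and 47.7 FPKM in low light. RVE8 (kfl00255_0190), a MYB-like transcription factor of the circadian clock, had 1.13 and 0.877 FPKM in high light against 12.1 and 7.95 FPKM in low light. CBL8 (kfl00057_0110), a calcineurin B-like calcium sensor, had 8.79 and 8.65 FPKM in high light against 46.0 and 35.7 FPKM in low light. RVE8 and CBL8 differed more between the low light replicates than between the high light replicates. RVE8 was the only gene found by a list of 15 clock loci, since the other clock genes of that list have no best hit among the genes the study listed.

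Of the 10 members with the lowest ratio, 3 are named above (CBSX3, BASS4 and HSD5) and 7 have no annotated role. The gene kfl00086_0380, at positions 218468 to 219706 of scaffold kfl00086, had 2.64 and 2.23 FPKM in high light against 44.3 and 43.3 FPKM in low light. The gene kfl00505_0070, at positions 53291 to 54795 of scaffold kfl00505, had 0.373 and 1.80 FPKM in high light against 25.5 and 26.8 FPKM in low light. Both had close values in low light, but only kfl00086_0380 also had close values in high light. The other 5 were listed at 0 in 1 high light library. They are kfl00048_0250, with 0 and 3.77 FPKM in high light against 27.6 and 32.2 FPKM in low light, and kfl00299_0060, with 0 and 1.06 FPKM in high light against 16.3 and 12.5 FPKM in low light. In kfl01069_0020 the order was the other way round, with 2.63 and 0 FPKM in high light against 23.1 and 20.8 FPKM in low light. The gene kfl00044_0310 had 0 and 1.13 FPKM in high light against 11.7 and 16.4 FPKM in low light. The last, kfl01813_0940.exon.1, is a tRNA of 74 bp at positions 98300 to 98373 of the plastid genome, with 0 and 1.88 FPKM in high light against 21.2 and 22.5 FPKM in low light. It is the only member from the plastid genome and the only tRNA, and the libraries were made from poly(A) RNA. Its values did not follow the plastid rRNA, which was high in high light replicate 1 and low light replicate 2.

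The members varied more between the high light replicates than genes of the same low light level, a difference that was not tested. In the 154 members above 0 in every library, the replicates differed in log2(FPKM + 1) by a median of 0.319 in high light and 0.222 in low light, regardless of sign. The other 6664 genes of 5 to under 50 FPKM in low light had 0.176 in high light and 0.206 in low light. Among 4062 other genes in the high light range of the members, this difference was 0.235 in high light and 0.255 in low light. Adding 1 before the logarithm shrinks the difference more at low FPKM, and so more for the members in high light than in low light. Of the 154 members, 85 had high light values within 1.5 times of each other and 36 had values more than 2 times apart, whereas 178 of the 213 members had low light values within 1.5 times of each other and 5 had values more than 2 times apart. Neither replicate was higher throughout, as replicate 1 was above replicate 2 in 99 of the 213 members in high light and in 105 in low light.

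In the other 59 members, 1 high light library was listed at 0, replicate 1 in 40 genes and replicate 2 in 19. The value in the other high light library was 0.137 to 4.37 FPKM with a median of 1.13 FPKM, and was at least 1 FPKM in 36 genes. An exact 0 beside such a value may be a failed estimate as well as a gene without reads, and no fold change is given for any of these genes singly. The pattern also occurs outside the set, as 586 genes were listed at 0 in exactly 1 high light library and 244 of them had at least 1 FPKM in the other. None of the 59 was called repressed, where 3.51% of all genes were called. Only 3 of the 59 are among the 89 members that the study listed. All 79 called members are therefore among the 154. A 0 beside a value above 0 widens the replicate spread that enters the fit, so nothing is read from these counts. High light replicate 1, with 40 of these zeros, is also the high light library with more plastid rRNA, and the part of that in the zeros was not tested. Over all genes, 11130 were above 0 in high light replicate 1 and 11096 in high light replicate 2.

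**Figure D3:**
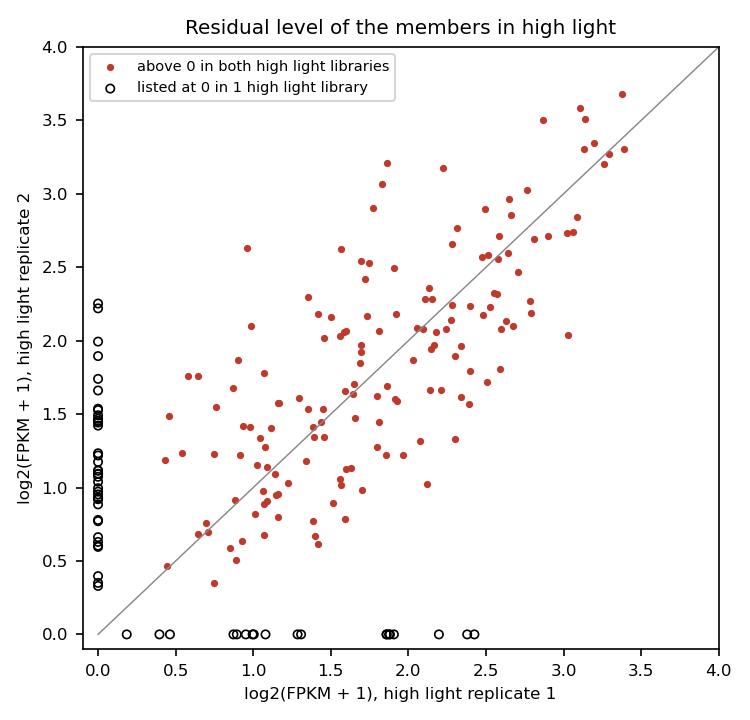
Level of the 213 members in high light replicate 2 against high light replicate 1, as log2(FPKM + 1), with members above 0 in both in red and members listed at 0 in 1 of them as open circles. The line marks equal values. The open circles lie on the axes, 40 at 0 in replicate 1 and 19 at 0 in replicate 2, up to 4.37 FPKM in the other library.

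Several members share their best hit with another gene of the alga, which was looked for after the values were known. A shared hit is similarity to the same gene of another species, and the genes of a pair were not compared with each other. By Arabidopsis hit, 11 genes that are no members shared a hit with 10 members, and 7 of these 11 were called repressed and 4 were called activated. By *Chlamydomonas* hit, 12 such genes shared a hit with 11 members, with 8 called repressed, 3 called activated and 1 not called. Of the 1355 genes that the study listed, 39.3% were called repressed here, and the activated share of these was not counted. Over all genes, 3.51% were called repressed and 4.0% were called activated. Only genes that the study listed as changed have hits, so genes that share a hit but did not change are missing. Nothing is therefore read from the counts of shared hits.

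The activated genes gave pairs with opposite directions, that of the member being set by its choice. Beside the member AMT2 (kfl00008_0180), a second AMT2 hit, kfl00056_0140, had 1865 and 2007 FPKM in high light against 727 and 708 FPKM in low light, a log2 fold change of 1.41 ± 0.09 (SE; adjusted p = 0.0291, limma). In both conditions this gene was far more abundant than the member, by a factor that was larger in high light. Beside the member 3BETAHSD/D1 (kfl00049_g19), with 5.81 and 7.14 FPKM in high light against 32.3 and 27.2 FPKM in low light, kfl00650_0090 had 70.1 and 65.1 FPKM in high light against 10.7 and 12.1 FPKM in low light (log2 fold change 2.62 ± 0.12, SE, adjusted p = 0.0231, limma). Beside IAMH2 (kfl00183_0080), the gene kfl00018_0480, which has the same *Chlamydomonas* hit, had 20.0 and 23.9 FPKM in high light against 2.99 and 3.00 FPKM in low light (log2 fold change 2.87 ± 0.10, SE, adjusted p = 0.0179, limma). These 3 genes could be paired only because the study had listed them as changed in the same libraries. Their adjusted p is therefore no independent evidence of a direction. The 3 calls also depend on the fit having no block. With the replicate block or the crossed block, which leave fewer degrees of freedom for the spread, their adjusted p was 0.0764 to 0.139 (limma). With any 1 library left out, their log2 fold changes were 1.33 to 2.97. For 3BETAHSD/D1 and IAMH2 the order of the pair was thus opposite in the 2 conditions. The member was the lower gene in high light and the higher gene in low light. The other LHCA2 hit, kfl00478_0030, which the study assigns to LHCSR, a stress-related antenna protein, had 5646 and 6359 FPKM in high light against 2152 and 1901 FPKM in low light. The other SOS1 hit, kfl00297_0070, had 1.35 and 1.27 FPKM in high light and was listed at 0 in both low light libraries. The member kfl00476_0010, with 2.22 and 2.60 FPKM in high light against 14.7 and 15.8 FPKM in low light, shares a *Chlamydomonas* hit with kfl00484_0050, which had 101 and 96.1 FPKM in high light against 30.6 and 26.6 FPKM in low light.

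Of the 7 repressed genes that share an Arabidopsis hit with a member, 5 were more abundant than the member in both conditions. The other CBSX3 hit, kfl00066_0110, had 30.3 and 23.7 FPKM in high light against 109.5 and 105 FPKM in low light. The other RNS2 hit, kfl00064_0130, had 16.2 and 21.4 FPKM in high light against 108 and 102 FPKM in low light, and the other NADP-ME3 hit, kfl00030_0180, had 23.0 and 17.8 FPKM in high light against 82.4 and 87.9 FPKM in low light. Each of the members CBSX3, RNS2 and NADP-ME3 thus shared its hit with a gene above the abundance bound that was also called repressed. The second BAT1 hit, kfl00169_0190, precedes the member kfl00169_0200 in locus number and had 17.6 and 17.4 FPKM in high light against 56.0 and 46.6 FPKM in low light. How reads that match near-identical genes were assigned is not given in the sources used here, so values of such genes are uncertain where they share sequence.

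**Figure D4:**
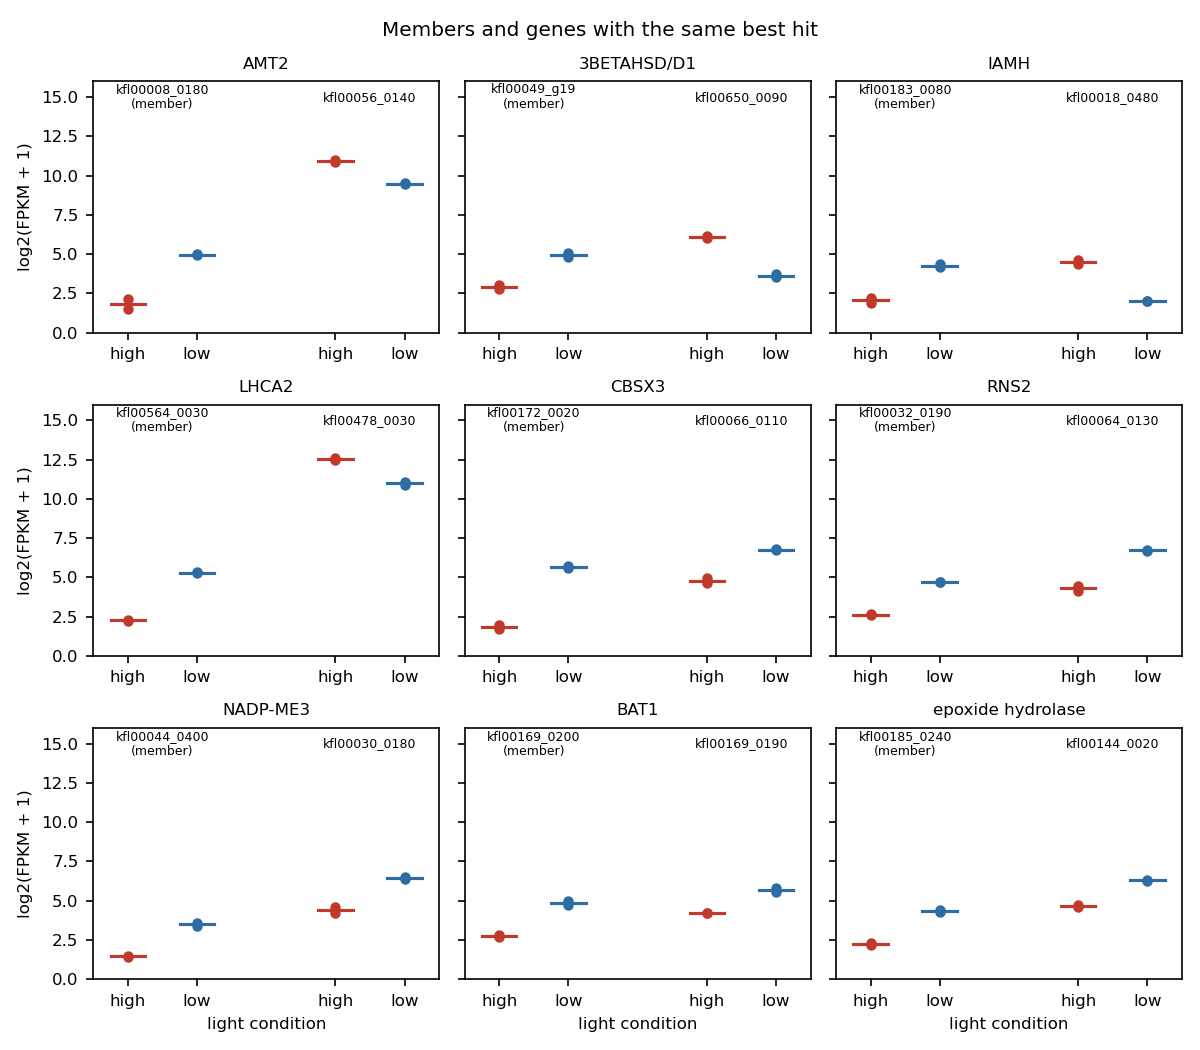
Level of 9 members (left in each panel) and of a gene with the same best hit (right in each panel), as log2(FPKM + 1), with 1 point per library, the mean as a line, high light in red and low light in blue. In the panels of AMT2, 3BETAHSD/D1, IAMH and LHCA2 the gene on the right is higher in high light, and in the other 5 panels it is lower. IAMH is paired by *Chlamydomonas* hit and the others by Arabidopsis hit.

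By locus number, 203 members were found in a gene table of assembly ASM70883v1, and 202 of these are protein coding. The gene span of the members had a median of 3973 bp, against 4999 bp in 6655 other genes of 5 to under 50 FPKM in low light and 3120 bp in 41 of the 43 strongly repressed genes of at least 50 FPKM. The members lay on 167 scaffolds, at most 4 on 1 scaffold (kfl00057, with EME1B and CBL8 among them). Of the listed genes in each class, 75.3% of the members had an Arabidopsis hit, against 64.1% of the abundant repressed genes and 62.5% of the genes of the same low light range that were listed at 0 in both high light libraries, where 73.6% of all 1355 listed genes had one.

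In 10 pairs, 20 members were direct neighbours. AZG1 (kfl00032_0420), at positions 255830 to 262499 of its scaffold, lies 1185 bp from kfl00032_0410, which had 0.935 and 0 FPKM in high light against 5.15 and 4.86 FPKM in low light. SMC6B (kfl00608_0090), at positions 39896 to 50444 of its scaffold, lies 486 bp from kfl00608_0080, which had 5.89 and 3.82 FPKM in high light against 25.01 and 30.7 FPKM in low light. IAMH2 (kfl00183_0080) overlaps kfl00183_0070, which had 0.898 and 0.557 FPKM in high light against 10.6 and 5.71 FPKM in low light. This is the only overlapping pair of members. In the pair kfl00247_0060 and kfl00247_0070, high light replicate 2 was the higher library for both genes, with 2.23 and 4.84 FPKM for kfl00247_0060 and 1.56 and 3.93 FPKM for kfl00247_0070. In low light the same pair had 21.6 and 16.6 FPKM for kfl00247_0060 and 18.0 and 16.1 FPKM for kfl00247_0070. Both genes of the pair kfl00299_0060 and kfl00299_0070 were listed at 0 in high light replicate 1, with 1.06 and 1.77 FPKM in replicate 2, and in low light they had 16.3 and 12.5 FPKM for kfl00299_0060 and 12.8 and 9.32 FPKM for kfl00299_0070. In all, 11 members overlap a neighbouring gene, and since the use of strand in the counting is not given in the sources used here, their reads may be shared with that neighbour.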

How the data were processed

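The authors checked the reads with FastQC, aligned them with HISAT2 and estimated expression with StringTie (pipeline MARACAS), using release 1.0 of the *K. nitens* assembly and gene models, with tool versions not given in the sources used here. The deposited values are FPKM of 17290 genes in each of 4 libraries, with replicates kept separate and without quantile normalization. They hold no read counts, and reads were not recovered from them.

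The set was chosen on deposited FPKM as described above. For the calls, log2(FPKM + 1) was quantile normalized and compared between conditions with limma 3.58.1 in R 4.3.3, with moderated variance, no trend, no filter and Benjamini-Hochberg adjustment over all genes. A gene was called where its log2 fold change was 1 or more in size with an adjusted p under 0.05. These are the study's own thresholds, and its methods name limma and quantile normalization but no pseudocount. This fit was first tested on simulated data, with 200 genes changed. The test required only the direction and size of the estimates to be right, with 1 common spread for the expressed genes. It therefore does not show how reliable the calls are in these data. With 2 libraries per condition, 0.333 is the smallest two-sided p that an exact permutation test of a gene could give, so none was used. Folds in the text are quotients of mean FPKM, and tables and figures were made in Python 3.11.15 with pandas 2.3.3, numpy 2.4.6 and matplotlib 3.10.9.

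The members and lists were chosen with earlier results of these data known. Named members are those with an Arabidopsis best hit of known role, the 10 lowest and 3 highest ratios and the 3 genes just outside the limit. Genes outside the set were named where a pathway list or a shared best hit turned on them, and neighbours and the narrowest gap were chosen after their values were seen. Best hits come from the study's supplementary table of changed genes, whose fold changes and p-values were not used. Identifiers were matched by locus number to assembly ASM70883v1. The promoter motifs and protein comparisons planned were not analysed here. The pseudocount, the filter, the normalization, the ratio and the replicate block were varied, and each library was left out in turn.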

Additional observations from a re-analysis of the deposited data

How the results depend on the processing

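All 213 members had a negative log2 fold change under every alternative fit, a direction that their choice fixes on the deposited values. The number of members was 360 with a pseudocount of 0.1 in the ratio, 104 at a ratio of at most 0.2, 356 at a ratio of at most 0.3 and 138 with FPKM scaled to a common median, 136 of them shared with the 213. Median scaling kept 30 of the 51 named members. With 1 library left out, 191 to 223 genes passed, but only 137 to 180 of them were among the 213: 148 without high light replicate 1, 137 without high light replicate 2, 176 without low light replicate 1 and 180 without low light replicate 2. The median log2 fold change of the members was -2.43 with a pseudocount of 0.1 and -2.35 without normalization, where the 10557 genes detected in every library had a median of -0.22, and -2.07 to -1.87 with 1 library left out. The counts of calls changed with the genes that were fitted. Fitting only genes with a mean of at least 1 FPKM gave 1222 repressed and 1212 activated genes and 192 called members, against 607, 691 and 79. Leaving out 1 library gave 75 to 242 repressed and 141 to 180 activated genes. For the members it left 6 called without high light replicate 1, 5 without high light replicate 2, 8 without low light replicate 1 and 8 without low light replicate 2. The activated share of all calls was 53.2%, and 37.0% without normalization. With the replicate number as a block, limma called 0 genes repressed, 0 activated and 0 members, with 4365 genes and 124 members at an unadjusted p under 0.05. The replicate differences of the 2 conditions correlated at -0.20 over 10557 genes, which does not settle whether the numbers pair the libraries. With the numbers crossed, chosen after seeing the data, 0 genes were called repressed, 0 activated and 0 members. In that limma fit, 4383 genes and 114 members had an unadjusted p under 0.05. Either block leaves fewer degrees of freedom for the spread, so the 0 calls cannot show whether the libraries are paired. Of 510 values of the 51 named members under the alternatives, 329 stayed within 1 SD of the reported value, 181 moved further and 0 changed sign, and the highest log2 fold change was -1.37. The replicate block and the crossed block cannot change a log2 fold change in this balanced design. Their values were therefore among the 329 in advance, and the 329 overstate the stability. The planned comparisons of promoters and proteins were not run. With 2 libraries per condition and no counts, levels under 1 FPKM in high light cannot be ordered.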
